A study of Mus musculus with 8 samples.

Results

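Tetraspanins were followed in RNA-seq libraries of mouse dendritic cells. The members were 10 listed genes, Tspan3, Tspan13, Tspan33, Cd9, Cd37, Cd53, Cd63, Cd81, Cd82 and Cd151, out of 23420 genes in the deposited count table. All 10 were found by symbol and all 10 passed the filter on low counts, which left 12442 genes. The 4 groups were cells with a Gata1 knock-out (KO) treated with LPS, wild-type (WT) cells treated with LPS, KO cells at steady state and WT cells at steady state, with 2 libraries each. The protein GATA1 is known as a regulator of red cell and platelet precursors, and LPS is a bacterial cell wall component that activates dendritic cells. The labels do not tell how the cells were obtained or grown, how Gata1 was deleted, how old the mice were, or how much LPS was given and for how long. Nor do they tell whether libraries came from separate animals, so the p-values rest on differences among libraries, which could be technical.

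Tetraspanins are small membrane proteins with a short and a long extracellular loop that gather integrins, immunoglobulin-family proteins, MHC molecules and proteases into membrane microdomains. In leukocytes they take part in adhesion, migration, antigen presentation and the sorting of proteins into endosomes and exosomes. In mouse dendritic cells Cd37 and Cd82 have been described as acting in opposite directions on migration and antigen presentation.

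Promoter sequences are shown for 4 members. Tspan13 and Tspan33 are the members called in any comparison, and Cd37 and Cd53 are the members with a GATA motif in the window. Each window runs from 250 bases before to 50 bases after the annotated start, 5′ to 3′ on the gene's strand, from RefSeq on GRCm38.p6, and capitals mark motif matches.

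Tspan13 (chr12:36042429-36042728, minus strand): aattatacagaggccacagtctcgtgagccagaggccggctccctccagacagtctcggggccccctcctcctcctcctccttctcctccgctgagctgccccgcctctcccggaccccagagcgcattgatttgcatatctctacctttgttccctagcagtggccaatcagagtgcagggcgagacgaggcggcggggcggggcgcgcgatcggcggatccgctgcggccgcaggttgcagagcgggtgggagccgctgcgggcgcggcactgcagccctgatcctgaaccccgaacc

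Tspan33 (chr6:29693964-29694263, plus strand): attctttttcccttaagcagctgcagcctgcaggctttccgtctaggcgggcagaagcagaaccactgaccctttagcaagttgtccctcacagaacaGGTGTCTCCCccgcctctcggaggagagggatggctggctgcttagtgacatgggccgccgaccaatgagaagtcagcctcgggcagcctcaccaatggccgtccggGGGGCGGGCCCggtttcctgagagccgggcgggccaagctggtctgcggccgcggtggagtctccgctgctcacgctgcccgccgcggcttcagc

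Cd37 (chr7:45238790-45239089, minus strand): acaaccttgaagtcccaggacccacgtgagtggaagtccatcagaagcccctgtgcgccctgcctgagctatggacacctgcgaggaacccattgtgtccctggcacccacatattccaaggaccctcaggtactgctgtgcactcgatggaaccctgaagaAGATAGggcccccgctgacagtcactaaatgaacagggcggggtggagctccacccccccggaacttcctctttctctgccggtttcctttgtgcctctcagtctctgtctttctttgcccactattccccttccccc

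Cd53 (chr3:106790100-106790399, minus strand): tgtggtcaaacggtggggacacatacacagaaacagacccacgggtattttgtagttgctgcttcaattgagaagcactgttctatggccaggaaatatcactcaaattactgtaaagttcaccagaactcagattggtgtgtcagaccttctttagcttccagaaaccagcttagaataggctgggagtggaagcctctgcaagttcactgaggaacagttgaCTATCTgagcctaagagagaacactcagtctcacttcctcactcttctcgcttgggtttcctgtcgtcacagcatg

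The motifs searched on both strands were the motif of GATA factors, which is spelled as AGATAA or, with the other allowed end letters, as AGATAG and further as TGATAA and finally as TGATAG, then NF-kB (GGGNNNNNCC), an interferon response element (GAAANNGAAA) and a joint ETS and IRF element (GGAANNGAAA), and matches of one motif may overlap. The 10 genes had 14 annotated windows, because Cd82 had 4 starts and Cd151 had 2. GATA letters stood in 2 of the 14, those of Cd37 and Cd53, against 29.8% of all 32851 windows. NF-kB letters stood in 8, belonging to Tspan3, Tspan33, Cd9, Cd81, Cd82 and Cd151, against 50.8% of all windows. The Tspan33 window held 3 such matches, the first at base -152 and the other two overlapping from bases -45 and -44, and the Tspan13 window held none of the 4 motifs. The other two motifs were in 0 of the 14 windows and in 3.44% and 2.72% of all windows. These matches are letters only and are not evidence of binding.

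Gata1 had 0 reads in all 4 KO libraries, 0 and 1 reads in the WT LPS libraries and 1 and 10 reads in the WT steady-state libraries. The 10 reads were in WT steady-state replicate 2. With so few reads in the other WT libraries, these counts cannot check the genotype. Total counts ran from 8005151 to 15495249 per library. Of the 10 dendritic cell markers all had reads in each group, but Itgax (CD11c) was at 80.3 and 78.8 CPM (read counts scaled to library size) in KO LPS libraries, 645 and 214 in WT LPS, 619 and 384 in KO steady state and 473 and 374 in WT steady state. Flt3, a dendritic cell growth factor receptor, was at 0.452 and 0.306 CPM in KO LPS libraries and at 0.926 and 18.7 in WT LPS libraries. At steady state Flt3 was at 33.4 and 35.2 CPM in KO and at 19.9 and 55.9 in WT. Others of the 10, such as Zbtb46 and Batf3, were also lower in both KO LPS libraries than in both WT LPS libraries. Cd74, H2-Ab1 and Irf4 overlapped between the LPS groups. The WT LPS libraries differed most from each other, with a median SD of log2 CPM of 0.463, against 0.355 in KO LPS, 0.111 in KO steady state and 0.196 in WT steady state. Fewer cells of a type and less RNA per cell cannot be told apart in such bulk libraries.

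Compared per kilobase of exon, Cd53 and Cd9 were the highest of the 10 in each group and Tspan33 was the lowest. Cd53 averaged 750 ± 206 RPKM (reads per kilobase of exon, scaled to library size, SD, n = 2) in KO LPS cells, 421 ± 311 in WT LPS, 244 ± 2.08 in KO steady state and 209 ± 33.0 in WT steady state. Cd9 averaged 132 ± 41.5, 108 ± 11.5, 166 ± 16.6 and 194 ± 0.958 RPKM in the same groups, and its libraries overlapped those of Cd53 in WT steady state alone. Tspan33 averaged 0.768 ± 0.420, 4.54 ± 1.20, 6.17 ± 0.296 and 9.65 ± 2.29 RPKM. Between these ends the place of Tspan13 differed most, as it stood 9th in KO LPS at 6.67 ± 0.717 RPKM, 3rd in WT LPS at 86.4 ± 8.13, 8th in KO steady state at 19.4 ± 1.70 and 7th in WT steady state at 26.8 ± 5.74.

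The order in KO LPS cells was Cd53, Cd9, Cd63, Cd82, Cd81, Cd37, Tspan3, Cd151, Tspan13 and Tspan33, with overlap between the neighbours Cd63 and Cd82 and between Cd82 and Cd81. The order in WT LPS cells was Cd53, Cd9, Tspan13, Cd81, Cd82, Cd37, Tspan3, Cd63, Cd151 and Tspan33, with overlap between Cd81 and Cd82, between Cd37 and Tspan3, and between Tspan3 and Cd63. The order in KO steady-state cells was Cd53, Cd9, Cd81, Cd63, Cd82, Cd37, Tspan3, Tspan13, Cd151 and Tspan33, and Cd37, Tspan3 and Tspan13 overlapped their neighbours. The order in WT steady-state cells was Cd53, Cd9, Cd63, Cd81, Cd82, Tspan3, Tspan13, Cd37, Cd151 and Tspan33, and the 4 from Cd82 to Cd37 overlapped as neighbours. With the longest annotated transcript as the length, 5 of the 10 kept their place in the order over all libraries, namely Cd53, Cd9, Cd81, Cd151 and Tspan33.

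**Figure D1:**
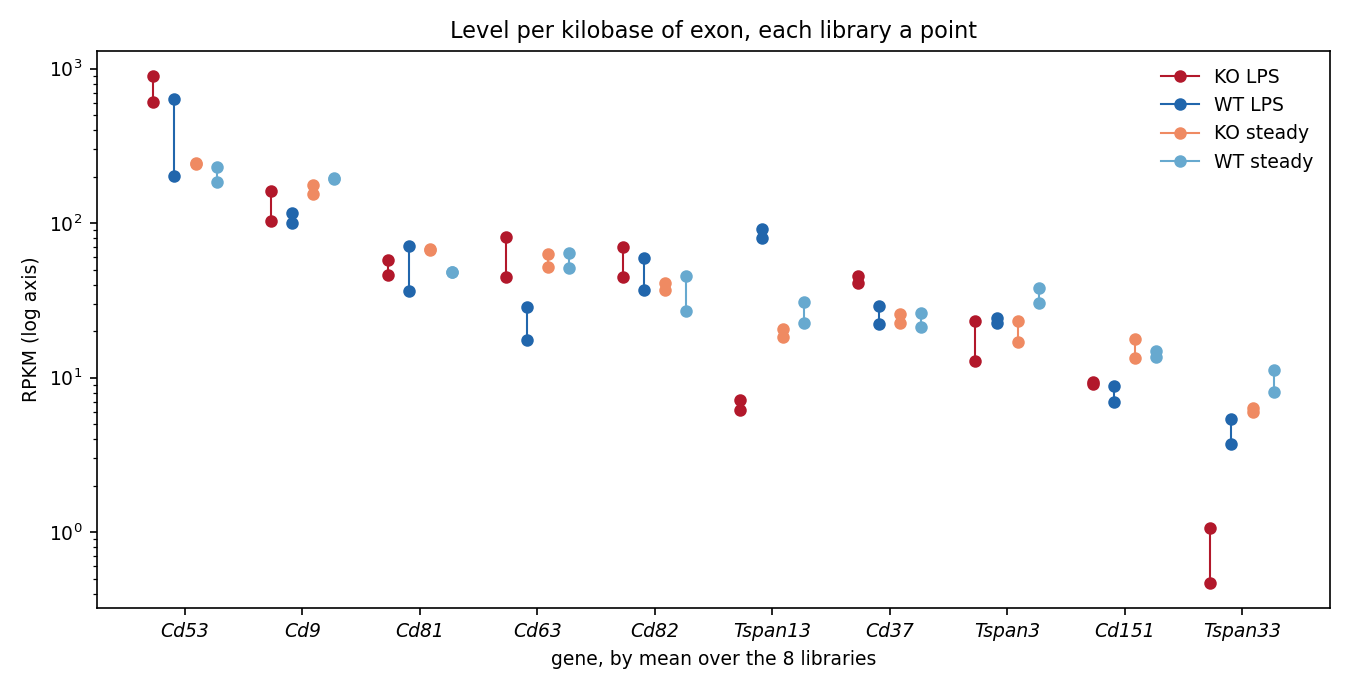
Level of each of the 10 tetraspanins in RPKM on a log axis, genes ordered by their mean over the 8 libraries, with each point a library and a line joining the 2 libraries of a group (KO LPS, WT LPS, KO steady state, WT steady state from left to right within a gene). Cd53 and Cd9 stand above the other genes, while Tspan13 has its lowest levels in KO LPS and its highest in WT LPS.

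The comparisons asked what the Gata1 knock-out and LPS each changed. Tspan13 was the 1 tetraspanin called between genotypes with LPS, and LPS moved it in opposite directions, down in KO cells and up in WT cells. Tspan33 fell with LPS in KO cells. None of the other 8 members passed edgeR's quasi-likelihood test (Benjamini-Hochberg adjusted p under 0.05 over 12442 genes) in any comparison.

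**Figure D2:**
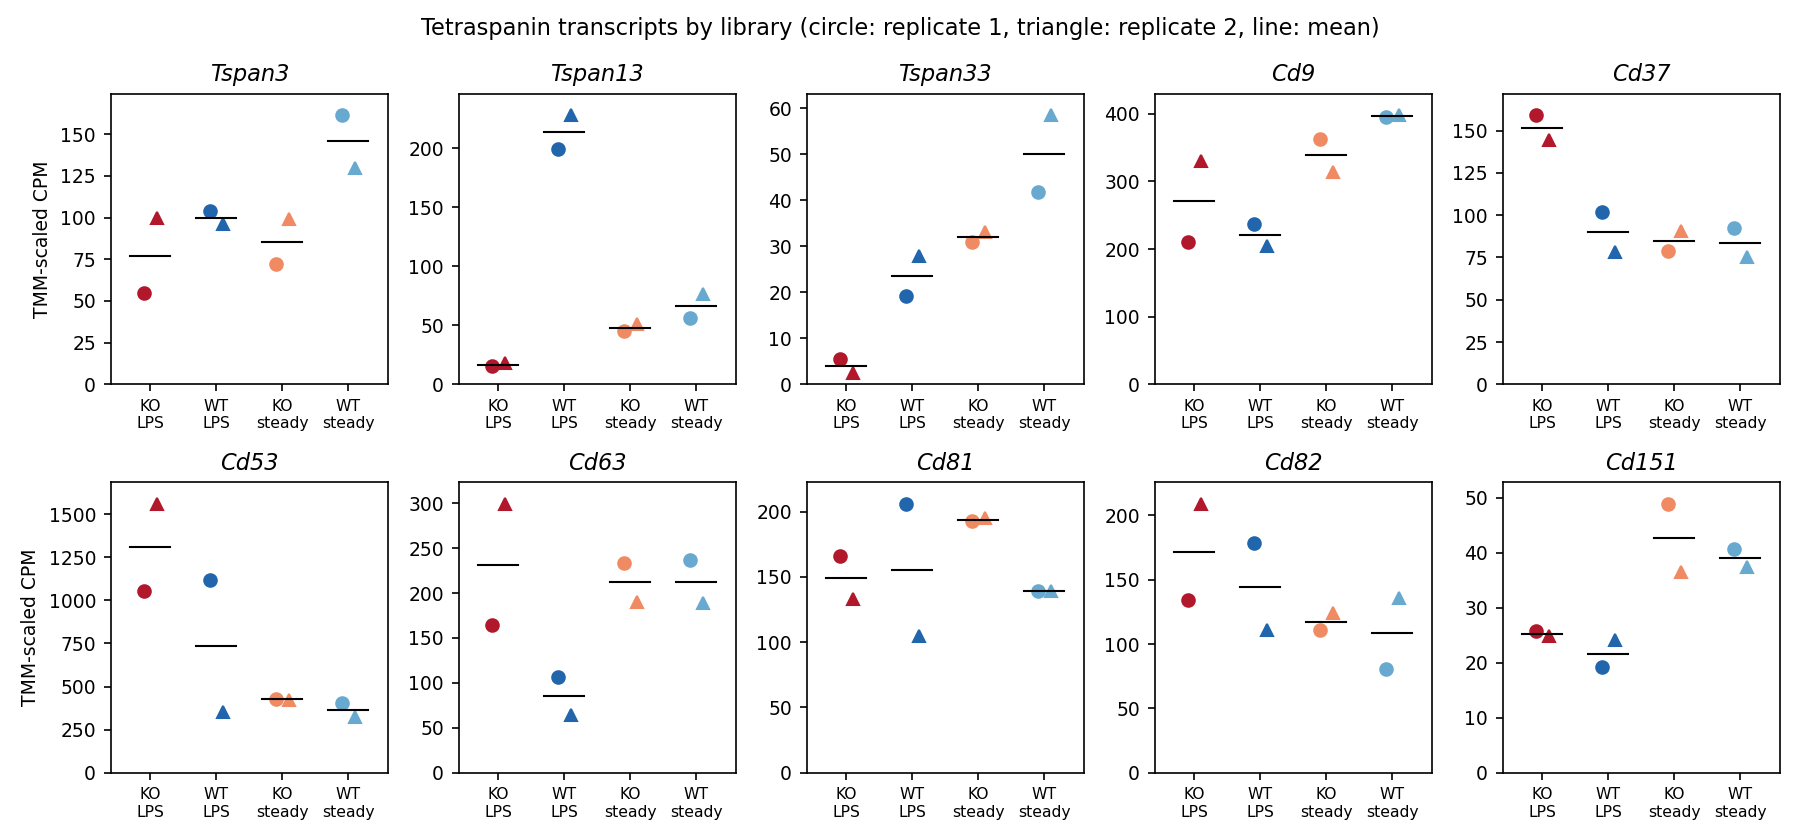
TMM-scaled CPM (vertical axis, from 0, with its own scale for each gene) of the 10 tetraspanins in each library, grouped as KO LPS, WT LPS, KO steady state and WT steady state, with circles for replicate 1, triangles for replicate 2 and lines for the mean of 2. Tspan13 lies between 15.2 and 17.8 CPM in KO LPS libraries and between 199.6 and 228 in WT LPS libraries, and Cd53 differs widely between the 2 WT LPS libraries.

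Tspan13 had 15.2 and 17.8 CPM with LPS in KO, 199.6 and 228 with LPS in WT, 45.1 and 51.0 at steady state in KO and 56.2 and 76.3 at steady state in WT. Both KO LPS libraries lay below, and both WT LPS libraries above, the libraries of the other groups. With LPS it was lower in KO cells than in WT cells by a log2 difference of -3.70 ± 0.27 (SE; edgeR adjusted p = 0.0102), a 13.0-fold lower level and the second smallest p of 12442 genes. LPS lowered it in KO cells (log2 -1.54 ± 0.25, edgeR adjusted p = 0.0140) and raised it in WT cells (log2 1.69 ± 0.25, edgeR adjusted p = 0.0119). The difference between these LPS responses was log2 -3.23 ± 0.35 with an unadjusted edgeR p of 2.71e-05, the smallest of all genes tested, and an adjusted p of 0.337. Adjusted p for that difference was 0.0211 with no filter on low counts and 2.05e-10 with DESeq2, while it was not called with the replicate number as a block. With 1 library left out that difference ranged from log2 -3.46 to -3.02. At steady state the genotypes did not overlap but the difference of log2 -0.46 ± 0.24 was not called (edgeR adjusted p = 1).

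The size of these differences moved little when 1 library was left out, though calls were lost. The difference between genotypes with LPS ranged from -3.83 to -3.59 and lost its call without KO LPS replicate 1 (edgeR adjusted p = 0.0744) or 2 (0.117). The LPS response of Tspan13 in KO cells ranged from -1.68 to -1.43 and lost its call without KO steady-state replicate 1 (edgeR adjusted p = 0.0882) or 2 (0.116) and without KO LPS replicate 1 (0.0542) or 2 (0.0690). The response in WT cells ranged from 1.50 to 1.94 and was not called once WT steady-state replicate 1 (edgeR adjusted p = 0.122) or 2 (0.0654) was left out.

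Tspan33 belongs to the TspanC8 subgroup, which carries the membrane protease ADAM10 through the secretory pathway. It was at 5.53 and 2.45 CPM in KO LPS libraries, 19.2 and 28.0 in WT LPS, 30.9 and 33.1 in KO steady state and 41.7 and 58.5 in WT steady state. The groups did not overlap in any of the 4 comparisons. Tspan33 fell with LPS in KO cells by 7.88-fold (log2 -2.98 ± 0.43, edgeR adjusted p = 0.00992). In WT cells the LPS difference was log2 -1.08 ± 0.39 and was not called (edgeR adjusted p = 0.133). Between genotypes the log2 difference with LPS was -2.54 ± 0.43, just outside the threshold (edgeR adjusted p = 0.0522). It was called with RLE scaling factors (adjusted p = 0.0487), with no filter (0.00453), with DESeq2 (5.29e-06) and without WT LPS replicate 1 (0.0199). The difference between the 2 LPS responses was -1.89 ± 0.56 (edgeR adjusted p = 0.611). At steady state the log2 difference between genotypes was -0.65 ± 0.38 (edgeR adjusted p = 1). The call in KO cells was lost without KO steady-state replicate 1 (edgeR adjusted p = 0.0580) or 2 (0.0587).

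**Figure D3:**
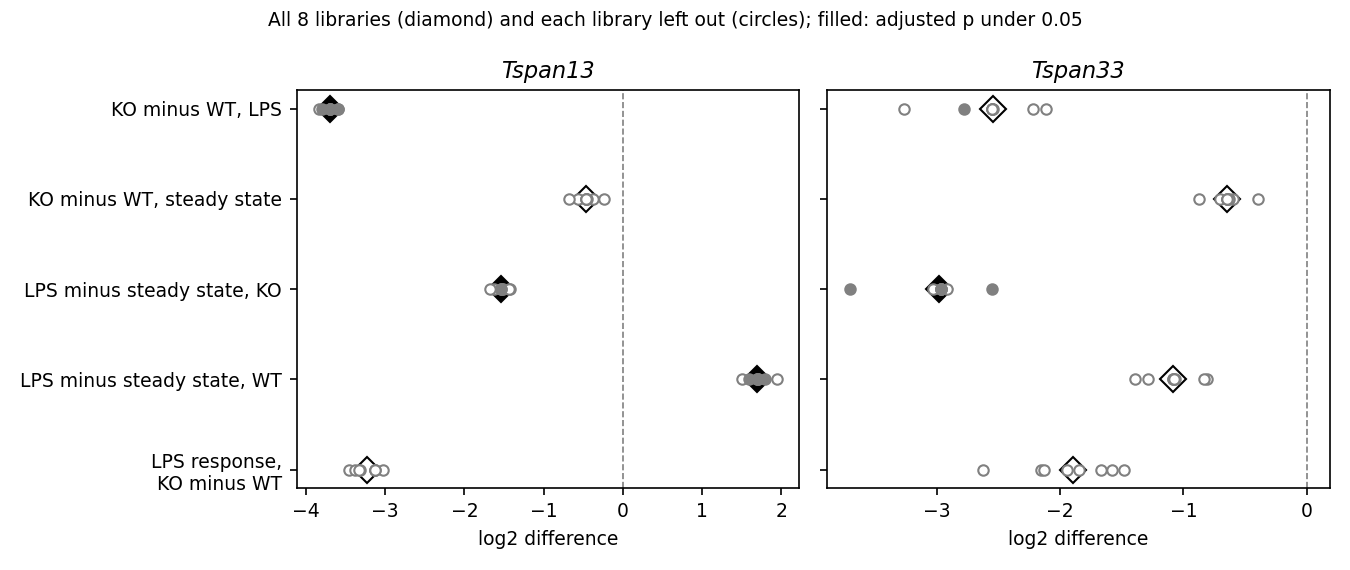
Log2 differences of Tspan13 and Tspan33 (horizontal axis) in each comparison, from all 8 libraries (diamonds) and with each library left out in turn (circles), filled where the adjusted p was under 0.05. Each circle lies on the same side of 0 as its diamond, and the Tspan13 values between genotypes with LPS lie between -3.83 and -3.59.

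Cd37 and Cd53 are restricted to leukocytes. Cd37 was at 159 and 145 CPM in KO LPS libraries, 102 and 78.0 in WT LPS, 79.1 and 90.6 in KO steady state and 92.6 and 75.1 in WT steady state. Both KO LPS libraries lay above the 6 others, and neither the difference between genotypes with LPS (log2 0.76 ± 0.24, edgeR adjusted p = 0.178) nor the LPS difference in KO cells (log2 0.84 ± 0.24, edgeR adjusted p = 0.0654) was called. The LPS difference of Cd37 in KO cells had an adjusted p of 0.0160 with DESeq2, and of 0.0296 without WT LPS replicate 1 or 2. In WT cells the LPS difference was log2 0.10 ± 0.24 (edgeR adjusted p = 0.814).

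Cd53, which binds and steadies the phosphatase CD45 at the leukocyte surface, was at 1053 and 1561 CPM in KO LPS libraries, 1116 and 350.3 in WT LPS, 428 and 423 in KO steady state and 405 and 324 in WT steady state. Both KO LPS libraries and WT LPS replicate 1 lay above the rest, while WT LPS replicate 2 lay within the range of the WT steady-state libraries. The LPS difference was log2 1.62 ± 0.53 in KO cells (edgeR adjusted p = 0.0888) and 1.01 ± 0.53 in WT cells (edgeR adjusted p = 0.263). In WT cells it was 1.61 without WT LPS replicate 2 (edgeR adjusted p = 0.0180) and -0.05 without WT LPS replicate 1 (0.963). The difference between genotypes with LPS was 0.83 ± 0.53 (edgeR adjusted p = 0.483), or 1.89 without WT LPS replicate 1 (0.0365) and 0.23 without WT LPS replicate 2 (0.735). The difference in KO cells was called without WT LPS replicate 1 (0.00985) or 2 (0.0103), with no filter (0.0365) and with DESeq2 (0.0146).

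Cd63 marks late endosomes, lysosomes and exosomes. It was at 164 and 299.6 CPM in KO LPS libraries, 106 and 64.8 in WT LPS, 234 and 190.2 in KO steady state and 236 and 189 in WT steady state. Both WT LPS libraries lay below the 6 others. The LPS difference was log2 -1.32 ± 0.38 in WT cells (edgeR adjusted p = 0.0850) and 0.13 ± 0.38 in KO cells (edgeR adjusted p = 0.833), and the genotypes differed with LPS by 1.44 ± 0.39 (edgeR adjusted p = 0.124). DESeq2 called the first and the last of these (adjusted p = 0.0178 and 0.0127), and the difference of responses was 1.45 ± 0.54 (edgeR adjusted p = 0.705). At steady state the genotypes differed by -0.01 ± 0.38 (edgeR adjusted p = 1).

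Cd9 and Cd81, close relatives that bind the immunoglobulin-family proteins Igsf8 and Ptgfrn, showed no called difference. Cd9 was at 211 and 331 CPM in KO LPS libraries, 237 and 204 in WT LPS, 362 and 314 in KO steady state and 395 and 398 in WT steady state. Both WT LPS libraries lay below both WT steady-state libraries (log2 -0.85 ± 0.30, edgeR adjusted p = 0.126, and 0.0498 with DESeq2), while the KO groups overlapped (log2 -0.32 ± 0.29, edgeR adjusted p = 0.464). Cd81 was at 166 and 133 CPM in KO LPS libraries, 206 and 105 in WT LPS, 193 and 195 in KO steady state and 139 and 139 in WT steady state. Its steady-state groups did not overlap (log2 0.48 ± 0.34, edgeR adjusted p = 1), and the WT LPS libraries stood on either side of both KO LPS libraries.

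Cd82, first known as a metastasis suppressor, was at 134 and 209 CPM in KO LPS libraries, 178 and 111 in WT LPS, 111 and 124 in KO steady state and 80.6 and 136 in WT steady state. The genotypes overlapped under both treatments, with log2 differences of 0.25 ± 0.38 with LPS (edgeR adjusted p = 0.803) and 0.11 ± 0.38 at steady state (edgeR adjusted p = 1).

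Cd151, a partner of the laminin-binding integrins, was at 25.8 and 24.8 CPM in KO LPS libraries, 19.2 and 24.1 in WT LPS, 48.9 and 36.6 in KO steady state and 40.8 and 37.4 in WT steady state. In both genotypes the LPS libraries lay below the steady-state libraries, by log2 -0.76 ± 0.25 in KO (edgeR adjusted p = 0.0898) and -0.85 ± 0.25 in WT (edgeR adjusted p = 0.0872). Cd151 passed in KO cells without WT LPS replicate 1 (0.0460) or 2 (0.0466), and in WT cells without WT LPS replicate 2 (0.0385) and with DESeq2 (0.0365). Tspan3 was at 54.6 and 99.8 CPM in KO LPS libraries, 104 and 96.2 in WT LPS, 72.2 and 99.1 in KO steady state and 162 and 130.0 in WT steady state. Both WT steady-state libraries lay above the 6 others, and the steady-state difference between genotypes was log2 -0.77 ± 0.33 (edgeR adjusted p = 1).

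**Figure D4:**
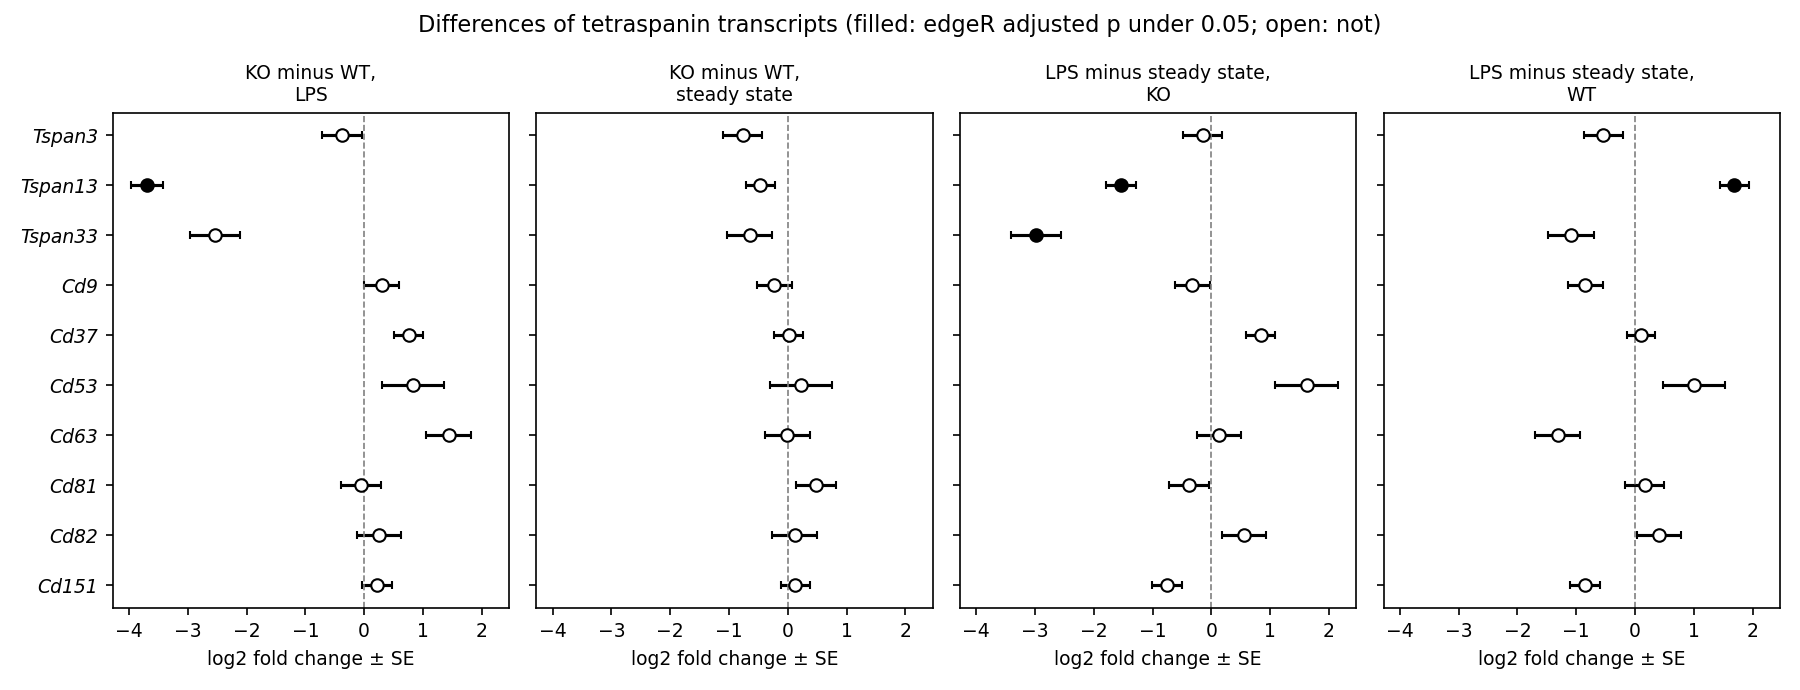
Log2 fold changes with SE (horizontal axis) of the 10 tetraspanins from edgeR, for KO minus WT with LPS, KO minus WT at steady state, LPS minus steady state in KO and LPS minus steady state in WT, filled where the adjusted p was under 0.05. Tspan13 is filled at -3.70, -1.54 and 1.69 and Tspan33 at -2.98, and no other point is filled.

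Counted over the 10 members, 0 were called higher and 1 lower in KO than in WT cells with LPS, against 0.281% higher and 0.490% lower of all genes tested. The members were chosen with earlier results of these data known, so the shares stand beside the counts without a test. At steady state 0 were called by edgeR, against 0% of all genes, with 0 members and 327 genes at an unadjusted p under 0.05 and 0 members and 27 genes by DESeq2. With LPS in KO cells 0 members rose and 2 fell, against 5.30% and 6.46% of all genes. With LPS in WT cells 1 rose and 0 fell, against 3.0% and 3.49%. For the difference between LPS responses 0 members and 0% of all genes were called by edgeR, with 3 members (Tspan13, Tspan33 and Cd63) and 797 genes at an unadjusted p under 0.05, and 1 member and 113 genes by DESeq2.

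Groups stood apart, with no overlap between their libraries, in 5 of 10 members between genotypes with LPS (36.1% of all genes) and in 6 between genotypes at steady state (45.5%). They also stood apart in 7 members between treatments in KO cells (72.6% of all genes) and in 6 in WT cells (56.6%). The counts for LPS lay near these shares, and those between genotypes were above them over 10 genes only. The median log2 difference of the 10 was 0.24 between genotypes with LPS and 0.01 at steady state, and -0.24 and -0.22 for LPS in KO and in WT cells, while that of all genes tested lay between -0.02 and 0.00 in these comparisons. The comparisons share libraries and are not independent.

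Of 21 other tetraspanins listed, 11 passed the filter, and the other 10 had at most 16 reads in any library. Tspan2, Tspan8 and Tspan14 fell with LPS in KO cells, and Tspan4 fell in WT cells, while 0 were called between genotypes. Of all genes tested, 6.46% fell with LPS in KO cells and 3.49% in WT cells. Between genotypes with LPS 0.281% were higher and 0.490% lower in KO, and at steady state 0% were called. In WT cells the LPS differences of Tspan2, Tspan8 and Tspan14 were log2 -0.32, -3.70 and -0.92, none of them called. The difference between LPS responses was called for 0 of the 11 (smallest edgeR adjusted p = 0.506) and for 0% of all genes. Tspan14, another carrier of ADAM10, was at 36.4 and 35.8 CPM in KO LPS libraries and 121 and 104 in KO steady-state libraries (log2 -1.64 ± 0.34, edgeR adjusted p = 0.0262). Tspan2 was at 1.47 and 0.306 against 9.23 and 12.8 CPM in the same groups (edgeR adjusted p = 0.0371), and Tspan8 had 0 and 1 reads in KO LPS libraries against 29 and 89 in KO steady state (edgeR adjusted p = 0.0265). In WT cells Tspan8 had 2 and 1 reads with LPS and 25 and 19 at steady state (edgeR adjusted p = 0.0867). Tspan4 was at 4.36 and 5.51 CPM in WT LPS libraries and 21.8 and 17.6 in WT steady state (log2 -1.99 ± 0.37, edgeR adjusted p = 0.0261). In KO cells Tspan4 was at 15.1 and 28.0 CPM with LPS and 16.4 and 15.1 at steady state, and the genotypes differed with LPS by log2 2.11 ± 0.37 (edgeR adjusted p = 0.0601). The median log2 difference of the 11 was -0.97 for LPS in KO and -0.92 in WT, and -0.06 and 0.24 between genotypes with LPS and at steady state. That of all genes tested lay between -0.02 and 0.00 in these comparisons.

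Among 5 tested genes of the TspanC8 subgroup with its protease, Tspan33 and Tspan14 fell with LPS in KO cells, 0 were called in WT cells and 0 between genotypes under either treatment. Over all genes tested 6.46% fell with LPS in KO cells and 3.49% in WT cells. The shares of all genes called between genotypes were 0% at steady state and, with LPS, 0.281% higher and 0.490% lower in KO. The difference between LPS responses was called for 0 of the 5 and for 0% of all genes. Adam10 itself was at 175 and 87.3 CPM in KO LPS libraries, 41.5 and 88.5 in WT LPS, 243 and 217 in KO steady state and 161 and 197 in WT steady state, and was not called. Tspan5 and Tspan17, of the same subgroup, were not called in any comparison.

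Of 25 tested surface partners, 0 were higher and 1 lower in KO than in WT cells with LPS, and 0 were called at steady state. That gene was Itga3, the alpha chain of a laminin-binding integrin that pairs with CD151. It had 0 reads in both KO LPS libraries, 13 and 40 in WT LPS, 27 and 17 in KO steady state and 50 and 69 in WT steady state (edgeR adjusted p = 0.0445). Against a floor of 3 reads over the KO LPS group (0.195 CPM on the TMM scale) it was at least 10.8-fold lower than in WT LPS cells and at least 9.23-fold lower than in KO steady-state cells (edgeR adjusted p = 0.0141), where the floor covers counting error only. With LPS in KO cells 1 partner rose and 3 fell, namely Ifitm3 (log2 2.40) and Itga3, Itgb7 (-3.63) and Vcam1 (-3.79), with edgeR adjusted p between 0.0141 and 0.0210. With LPS in WT cells 1 rose and 6 fell, among them Ifitm3 (log2 1.88) and Ptgfrn (-1.62), Itga6 (-3.58), Itgam (-1.57), Itgb7 (-2.64) and Clec7a (-2.13), with edgeR adjusted p between 0.0273 and 0.0488. Of these, Itga6 encodes another laminin-binding integrin chain, Ptgfrn a partner of CD9 and CD81, and Clec7a the lectin receptor dectin-1, which associates with CD37. The difference between these 2 responses was called for 0 of the 25 (smallest edgeR adjusted p = 0.532). It was also called for 0% of all genes, so this count cannot tell whether the responses of the partners differ. The median log2 difference of the list was -0.96 for LPS in KO and -0.63 in WT, against -0.02 and 0.00 over all genes tested. The shares called over all genes were 5.30% higher and 6.46% lower with LPS in KO cells and 3.0% and 3.49% in WT cells. Between genotypes with LPS they were 0.281% higher and 0.490% lower in KO, and at steady state 0% were called.

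The endosome and exosome machinery around Cd63 showed no called gene in any of the 5 comparisons among 15 tested members. Their log2 differences lay between -0.45 and 0.92 between genotypes with LPS, between -0.73 and 0.97 for LPS in KO and between -0.74 and 0.94 for LPS in WT cells. The smallest edgeR adjusted p in these was 0.282, 0.0710 and 0.0892. Among all genes tested 5.30% rose and 6.46% fell with LPS in KO cells, and 3.0% and 3.49% in WT cells. Only 0.281% were higher and 0.490% lower in KO than in WT cells with LPS. At steady state and for the difference between LPS responses 0% of all genes were called.

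Over the 8 libraries, the genes most like Tspan13 in log2 CPM were Fam110a (Pearson's r of 0.98) and Actg1 (0.98), among 8617 genes whose log2 CPM averaged 3 or more. Fam110a was at 10.3 and 8.88 CPM in KO LPS libraries, 40.1 and 60.8 in WT LPS, 19.0 and 19.3 in KO steady state and 23.9 and 24.2 in WT steady state. Actg1 has near-identical copies in the genome, so its count is uncertain. The genes most like Tspan33 were Phc1 and Zfp362 (both 0.99). Phc1 was at 7.34 and 4.29 CPM in KO LPS libraries, 17.7 and 26.5 in WT LPS, 22.3 and 25.5 in KO steady state and 28.2 and 35.1 in WT steady state. For the other 8 members the 2 nearest genes had r of 0.936 (Gnaq with Cd81) or more, with Mettl7a1 the nearest to Cd53 and Tmem141 the nearest to Cd37. With 2 libraries in each of 4 groups such values describe shared group levels and carry no test.

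Markers of other cell types moved with some of these groups. The summed level of 9 macrophage markers was 4608 to 4774 CPM in KO LPS libraries, 1589.7 to 2428 in WT LPS, 10702 to 10845 in KO steady state and 6192 to 9514 in WT steady state. Apoe made up much of the steady-state sums, and the 8 others summed to 3827 to 4236 CPM in KO LPS libraries, 1541 to 2384 in WT LPS, 4248 to 4398 in KO steady state and 2873 to 3738 in WT steady state. Among them Emr1 (F4/80) was at 1787 and 2751 CPM in KO LPS libraries, 1509 and 843 in WT LPS, 642 and 992 in KO steady state and 509 and 416 in WT steady state, so its levels were ordered otherwise than the sum. The 10 dendritic cell markers summed to 3755 to 7341 CPM in KO LPS libraries, 9454 to 12591 in WT LPS, 16713 to 17690 in KO steady state and 14751 to 23751 in WT steady state. Cd74 made up much of these sums. Without Cd74 the 9 others summed to 1920 to 2885 CPM in KO LPS libraries and 5277 to 5915 in WT LPS. At steady state they summed to 6566 to 6891 in KO and 7496 to 8821 in WT. The 6 B cell markers summed to 0.765 to 1.13, 0.661 to 5.69, 3.88 to 8.59 and 4.73 to 30.8 CPM in the same order of groups, with the highest value in WT steady-state replicate 2, which was also the library with the most Tspan33. The 7 basophil and mast cell markers summed to 10.4 to 28.0, 68.2 to 135, 52.9 to 76.9 and 34.9 to 125 CPM, but nearly all of this was the transcription factor gene Gata2 outside WT steady-state replicate 2. Without Gata2 the 6 others summed to at most 0.306 CPM in KO LPS libraries and at most 0.619 in WT LPS, and Prss34, Fcer1a, Ms4a2 and Cma1 were at 0 in KO LPS. The 6 megakaryocyte and platelet markers, whose cells are rich in CD9, summed to 209 to 377, 81.2 to 219, 115 to 391 and 253 to 320 CPM, most of it from Pf4, with Gp1bb at 0 in 3 of the 4 groups. The 5 plasmacytoid markers summed to 873 to 1424 CPM in KO LPS libraries, 1080.2 to 1229.7 in WT LPS, 137 to 143 in KO steady state and 261 to 368 in WT steady state. Most of that was Bst2, an interferon-inducible gene also found in other cells, while Siglech, with no library above 8 reads, was at 0 in both LPS groups. The 7 neutrophil markers found summed to 206 CPM in WT steady-state replicate 2 and 24.0 in replicate 1. They summed to 22.1 to 35.7 in KO LPS libraries, 16.9 to 18.4 in WT LPS and 5.76 to 7.06 in KO steady state. In WT steady-state replicate 2 the 6 basophil and mast cell markers other than Gata2 summed to 88.4 CPM, against 2.70 in replicate 1. The 6 erythroid markers summed to at most 1.78 CPM. The part of any of these in the tetraspanin differences was not tested.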

How the data were processed

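The 8 libraries came from dendritic cells of mice. RNeasy-plus purification and TruSeq v2 preparation, an unstranded method, are named per the labels' protocols. The authors deposited whole-number read counts per gene, not normalized, in 1 table. Tools in the submitters' processing notes are edgeR 3.6.8, Subread 1.4.3, TopHat2 2.0.8 and featureCounts, with build mm10 and no roles. The treatment of reads with several matching genes is not recorded there. Exons of Cd9, Cd37, Cd81 and Cd151 overlap those of antisense genes over 10.7%, 0.369%, 3.61% and 7.04% of their length in GENCODE vM21 (GRCm38, the assembly of mm10), and such reads cannot be told apart.

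The tests used edgeR 4.0.16 under R 4.3.3. Low genes were removed by filterByExpr (minimum count 10, minimum total 15) and library sizes scaled with TMM factors. The quasi-likelihood F test was fitted with 1 coefficient per group over all 8 libraries (4 residual and 3.40 prior degrees of freedom). The spread was thus shared by groups that differ in it. Itga3, with 0 reads in both KO LPS libraries, was tested with fewer degrees of freedom. Tests were two-sided, and a call is an adjusted p (Benjamini-Hochberg, 12442 genes) under 0.05. The SE is the log2 difference divided by the square root of F. RPKM used the union of exons in GENCODE vM21.

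The members and lists were chosen with earlier results of these data known. Genes other than members were named where they were called list members or among the 4 smallest adjusted p of a list, where their pattern was among the 2 most like a member, or as checks of labels. A gene that the rule gave is not reported here. Alternatives were RLE factors, no filter, DESeq2 1.42.0, the replicate number as a block and leaving out each library. Depth limits precision as counting error for genes with few reads, such as Tspan33 with 16 reads in KO LPS replicate 2.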

Additional observations from a re-analysis of the deposited data

Results flagged for a closer look

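Tspan13 stood out because LPS moved it in opposite directions in the 2 genotypes. Both KO LPS libraries lay below both KO steady-state libraries, and both WT LPS libraries lay above both WT steady-state libraries. The LPS response in KO minus that in WT was log2 -3.23 ± 0.35, which did not pass edgeR's test over all genes (unadjusted p = 2.71e-05, adjusted p = 0.337). It was the smallest p of 12442 genes. No group had enough libraries to look for single libraries that stand apart.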

How the results depend on the processing

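Every member kept its direction in each of the 5 comparisons with RLE factors, no filter, DESeq2 and the replicate block. Of the 200 such values 187 also kept their side of the threshold and 13 passed it only in the alternative. Of 400 values with a library left out, 26 changed direction, 10 lost a call and 10 gained one. Those that changed direction were all uncalled, and their log2 differences ranged as follows: Cd37 -0.14 to 0.17, Cd63 -0.17 to 0.15, Cd82 -0.22 to 0.53 and Cd151 -0.095 to 0.31 between genotypes at steady state; Cd9 -0.085 to 0.58, Cd81 -0.46 to 0.51 and Cd82 -0.13 to 0.62 between genotypes with LPS; Tspan3 -0.67 to 0.22 and Cd63 -0.39 to 0.50 for LPS in KO; Cd37 -0.10 to 0.28, Cd53 -0.051 to 1.61 and Cd81 -0.40 to 0.57 for LPS in WT; Tspan3 -0.14 to 0.76, Cd81 -0.94 to 0.023, Cd82 -0.28 to 0.51 and Cd151 -0.093 to 0.32 for the difference of LPS responses.

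Between genotypes with LPS the tetraspanins called numbered 1 in the fit of the report, 2 with RLE factors, 2 with no filter and 3 with DESeq2, and 0 to 3 with a library left out. For LPS in KO they numbered 2, with 3 with no filter (Cd53 added), 4 by DESeq2 and 0 to 5 with a library left out. For LPS in WT they numbered 1, with 2 with no filter, 4 by DESeq2 and 0 to 3 with a library left out. For the difference of LPS responses they numbered 0, with 1 (Tspan13) with no filter and 1 (Tspan13) by DESeq2, and at steady state 0 under each of these alternatives.

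Over all genes the calls between genotypes with LPS numbered 96, against 538 with no filter, 1062 with DESeq2 and 1 to 826 with a library left out. At steady state they numbered 0, against 9, 27 and 0 to 1. For LPS in KO they numbered 1463, against 2223, 2846 and 143 to 3345. For LPS in WT they numbered 807, against 1497, 1995 and 70 to 3629. For the difference of LPS responses they numbered 0, against 3 with no filter, 113 with DESeq2 and 0 with any library left out. A fit without a library has fewer residual degrees of freedom, and the lone library left in a group takes its spread from the other groups.

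With the replicate block the calls over all genes numbered 8 between genotypes with LPS, 776 for LPS in KO and 465 for LPS in WT, and no tetraspanin call was changed. Whether the numbers mark a shared batch is not given by the labels, and same-numbered libraries deviated together in some pairs of groups and apart in others (correlations from -0.60 between KO LPS and WT LPS to 0.26 between WT steady state and WT LPS). Swapping the 2 numbers within KO LPS, an alternative chosen after seeing the data, gave a block with 273 calls over all genes and 3 among tetraspanins. With the longest annotated transcript as length, 5 of 10 members kept their place in the order of levels, and with total counts as library size all 10 did. Genes of the lists outside the 10 members were not refitted under these alternatives.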
